A study of Mus musculus with 2 samples.

Results

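The let-7 guide arms are the mature miRNAs released from the 5′ arm of the let-7 hairpins and of the closely related miR-98 hairpin. The 9 rows named mmu-let-7a-5p, mmu-let-7b-5p, mmu-let-7c-5p, mmu-let-7d-5p, mmu-let-7e-5p, mmu-let-7f-5p, mmu-let-7g-5p, mmu-let-7i-5p and mmu-miR-98-5p were taken by name, whatever their counts, from a table of 1915 mature mouse miRNA names. The study concerns miR-21 in macrophages during atherosclerosis, and its small RNA libraries surveyed which miRNAs resting macrophages contain. Both libraries come from unstimulated bone marrow-derived macrophages (BMDMs) of wild type C57/BL6 mice aged 8 weeks. Per the study's methods, bone marrow cells were grown in medium with L-cell conditioned medium, which supplies the growth factor that turns progenitors into macrophages, and the adherent cells were used. Per the labels, the 2 libraries are biological replicates of this single group, called replicate 1 and replicate 2 here, so no condition is compared with another. The study's miRNA profile is described for a larger number of samples, and no further library was analysed here.

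A miRNA is cut from a hairpin transcript by Drosha and Dicer. One strand, the guide, is loaded into an Argonaute protein, and the opposite strand, the passenger, is mostly degraded. The guide recognises messenger RNAs chiefly through its seed, the bases near its 5′ end, so that miRNAs with the same seed share many predicted targets and are grouped as a family. let-7 miRNAs accumulate as cells differentiate, repress growth genes such as those of the Ras family, Myc and Hmga2, and are kept from maturing by LIN28 in stem cells. In macrophages, members of the family are known to act on transcripts of inflammatory cytokines and of a Toll-like receptor.

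All 9 members had a mature sequence in the RefSeq table of GRCm38.p6, in which 1623 of the 1915 names were found. They are shown because the counts below are divided among RNAs that differ at a few positions. Capitals mark the seed, bases 2 to 8, which is the same in all 9 members. The last line, let-7j, is not a member and is shown because its sequence is close to let-7i-5p, with another base at the end of the marked stretch.
mmu-let-7f-5p: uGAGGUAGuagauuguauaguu
mmu-let-7i-5p: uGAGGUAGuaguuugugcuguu
mmu-let-7a-5p: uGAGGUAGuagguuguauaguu
mmu-let-7g-5p: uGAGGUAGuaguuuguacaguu
mmu-let-7d-5p: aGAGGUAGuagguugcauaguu
mmu-let-7c-5p: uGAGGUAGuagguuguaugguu
mmu-miR-98-5p: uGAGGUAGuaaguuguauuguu
mmu-let-7e-5p: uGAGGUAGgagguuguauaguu
mmu-let-7b-5p: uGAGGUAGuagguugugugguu
mmu-let-7j: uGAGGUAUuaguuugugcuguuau

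Each member has 22 bases, and their GC content runs from 31.8% in let-7f-5p and miR-98-5p to 45.5% in let-7b-5p. With positions counted from 1 at the 5′ end and the base of let-7a-5p written first, let-7c-5p differs from let-7a-5p by A19G, let-7e-5p by U9G and let-7f-5p by G12A. let-7b-5p carries A17G and A19G, let-7d-5p carries U1A and U16C, let-7g-5p carries G12U and U18C, and miR-98-5p carries G11A and A19U. let-7i-5p is the farthest from let-7a-5p, with G12U, A17G, U18C and A19U. Among the 36 pairs of members, 4 differ by a single base, and the largest distance is 6 bases, between let-7d-5p and let-7i-5p. The number of mismatches allowed in mapping and the treatment of reads with several matches are not given in the sources used here. How many reads of one member were counted under another was not tested, and values of let-7a-5p, let-7b-5p, let-7c-5p, let-7e-5p and let-7f-5p, which a chain of single-base steps connects, are uncertain in that respect.

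The counts summed to 7322969 in replicate 1 and 8094314 in replicate 2, and 891 and 898 of the names had at least 1 count. A share is the count of a miRNA divided by the total of its library, the sum of the counts under all mature names. The study's methods describe a proportion of all reads mapped to known miRNAs. In the sum used here, a sequence with several names, such as the passenger of let-7a-1 and let-7c-2, enters under each name. Shares are given with a 95% Wilson interval for a single library, or as mean ± SD of both. At this depth a count of 0 allows a share of up to 3 counts of the total, which is 4.10e-05% in replicate 1 and 3.71e-05% in replicate 2. Intervals, floors and p-values take in the error of counting alone: the reads were amplified by PCR and carry no molecular identifiers, so several can stem from one molecule.

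The miRNAs that mark other cell types were compared with those of myeloid cells. The 4 haematopoietic and myeloid names summed to 4.95% of replicate 1 and 3.77% of replicate 2, led by miR-142a-5p with 271173 and 236776 counts and followed by miR-223-3p with 44323 and 36301 and miR-142a-3p with 44006 and 29352. The macrophage miRNA miR-511-3p was the rarest of the 4, with 3250 and 2838 counts. The lymphocyte miRNA miR-150-5p had 202 and 88 counts, and the endothelial miRNA miR-126a-3p had 103 and 88. The 3 fibroblast and mesenchymal names summed to 367 and 343 counts, led by miR-199a-3p with 280 and 262. The 3 epithelial names summed to 567 and 450 counts, led by miR-141-3p with 433 and 348. Of the neuronal names, miR-124-3p had 0 counts in both libraries and miR-9-5p had 12 and 11. Among the erythroid names, miR-451a had 7 and 8 counts and miR-144-3p 2 and 0, while miR-486a-5p had 3956 and 3683. Of the myeloid names, 3 were thus abundant, while miR-511-3p had fewer counts than the erythroid-listed miR-486a-5p. The other names of the non-myeloid lists had at most 433 counts in a library. The part of the other cell types in the let-7 counts was not tested, and in RNA from a whole culture a change in cell makeup and a change in miRNA per cell cannot be told apart.

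The let-7 guide arms were one of the main miRNA families of these macrophages. Their 473623 counts made up 6.47% (95% interval 6.45 to 6.49) of replicate 1, and their 531575 counts made up 6.57% (6.55 to 6.58) of replicate 2. The mean was 6.52% ± 0.0704 (SD, n = 2). The log2 ratio of the family share, replicate 2 over replicate 1, was 0.022 with library totals, 0.15 with TMM scaling and 0.17 with DESeq2 size factors.

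When the counts of names with an identical seed were summed, the let-7 family ranked 4 of 1352 seed families in each library. These include families without counts, since 1013 of the 1915 names had at least 1 count over both libraries. The families above it were led by miR-21a-5p with 26.8% ± 1.60 (SD, n = 2), miR-22-3p with 17.2% ± 0.620 and miR-27b-3p with 8.17% ± 0.0243. Below it, among the names with a sequence, came the families of miR-146a-5p with 4.54% ± 2.32, miR-142a-5p with 3.31% ± 0.550 and miR-10a-5p with 3.04% ± 0.367. The inflammation-associated miR-146a family stood closest from below in replicate 2, at 6.19% against 6.57% for let-7, and was far lower in replicate 1, at 2.90%. The gap between the let-7 mean and the miR-146a mean was smaller than the SD of the miR-146a family, so their order rests on the same direction in both libraries. The 292 names without a sequence in the table, which held 6.21% of all counts, could not be placed in a seed family. With the 5 miR-30 guide arms summed by name, an alternative chosen after seeing the data, the miR-30 family reached 5.36% ± 0.708, above the mean of the miR-146a family, and let-7 remained at rank 4.

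**Figure D1:**
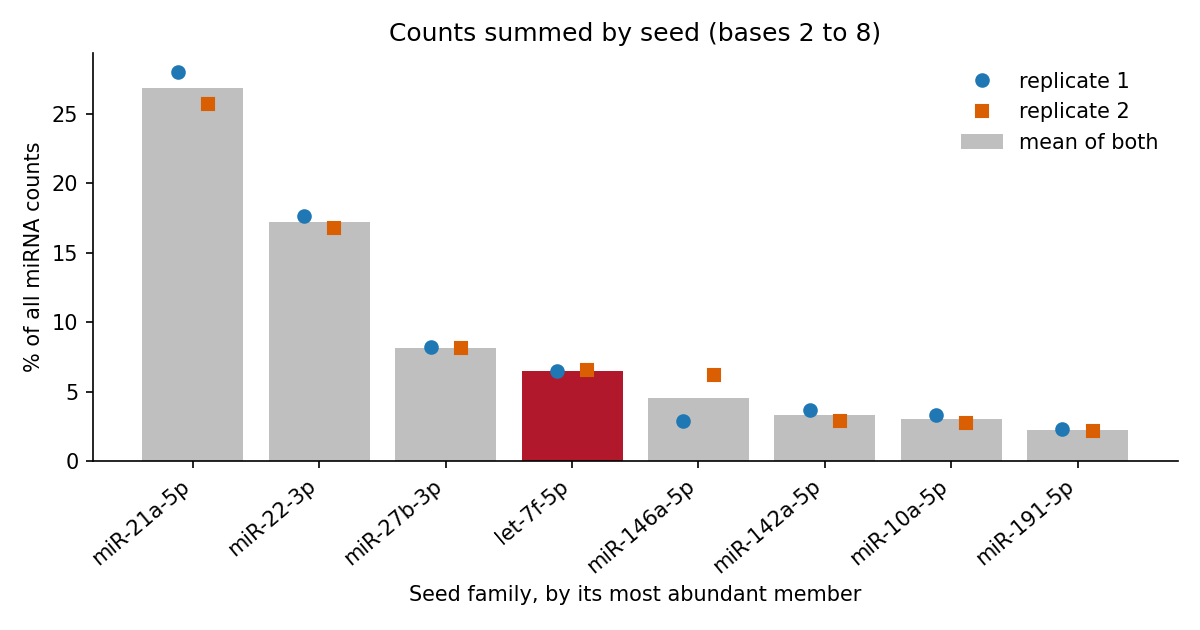
Percent of all miRNA counts held by each of the 8 most abundant seed families among the names with a sequence, named by the most abundant member, with bars for the mean of both libraries and points for each library. The let-7 family (red bar, 6.52%) lies between the miR-27b-3p family (8.17%) and the miR-146a-5p family (4.54%), whose libraries lie far apart, and the miR-30 guide arms, summed by name to 5.36%, are not drawn.

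The 9 members were all detected, with shares from 0.0424% to 2.70%. let-7f-5p was the most abundant. With 186409 counts it took 2.55% (95% interval 2.53 to 2.56) of replicate 1, and with 230759 counts 2.85% (2.84 to 2.86) of replicate 2, which gave 2.70% ± 0.216 (SD, n = 2). It ranked 8 among all miRNAs in replicate 1 and 7 in replicate 2. By mean share it stood between miR-10a-5p (3.04%) and miR-191-5p (2.26%), while in replicate 2 it lay above miR-10a-5p (2.78%).

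let-7i-5p came next, with 120116 and 143897 counts. Its share was 1.64% in replicate 1 and 1.78% in replicate 2, a mean of 1.71% ± 0.0972 (SD, n = 2), and it ranked 10 in both libraries. Its neighbours by mean share were miR-191-5p and miR-16-5p (1.59%). let-7a-5p, the member whose sequence is common to many animals, had 67927 and 60005 counts. These were 0.928% and 0.741% of the libraries, a mean of 0.834% ± 0.132. The mean placed let-7a-5p between miR-186-5p (0.859%) and miR-340-5p (0.663%), while in replicate 1 it lay above miR-186-5p (0.908%). These 3 members were the only ones above 0.5% in either library.

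The middle of the order was held by let-7g-5p, let-7d-5p, let-7c-5p and miR-98-5p. let-7g-5p had 36362 and 38999 counts, a mean of 0.489% ± 0.0104 (SD, n = 2). let-7d-5p had 21228 and 21276 counts, a mean of 0.276% ± 0.0191. let-7c-5p had 19480 and 16265 counts, a mean of 0.233% ± 0.0460. miR-98-5p, a let-7 member in all but name, had 13392 and 13299 counts, a mean of 0.174% ± 0.0131. The rarest were let-7e-5p, with 4907 and 4415 counts and a mean of 0.0608% ± 0.00881, and let-7b-5p, with 3802 and 2660 counts and a mean of 0.0424% ± 0.0135.

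The order of the members was the same in both libraries. For 6 of the 8 neighbouring pairs, the gap between the means was larger than the sum of both SDs. The gap did not exceed that sum for let-7d-5p against let-7c-5p, with shares of 0.290% and 0.266% in replicate 1 and 0.263% and 0.201% in replicate 2, or for let-7e-5p against let-7b-5p, with 0.0670% and 0.0519% in replicate 1 and 0.0545% and 0.0329% in replicate 2. The most abundant member had 49.0 times the count of the least abundant in replicate 1 and 86.8 times in replicate 2. Counts of different members are compared here without a correction for ligation or PCR, so a ratio of counts is not a ratio of molecules.

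**Figure D2:**
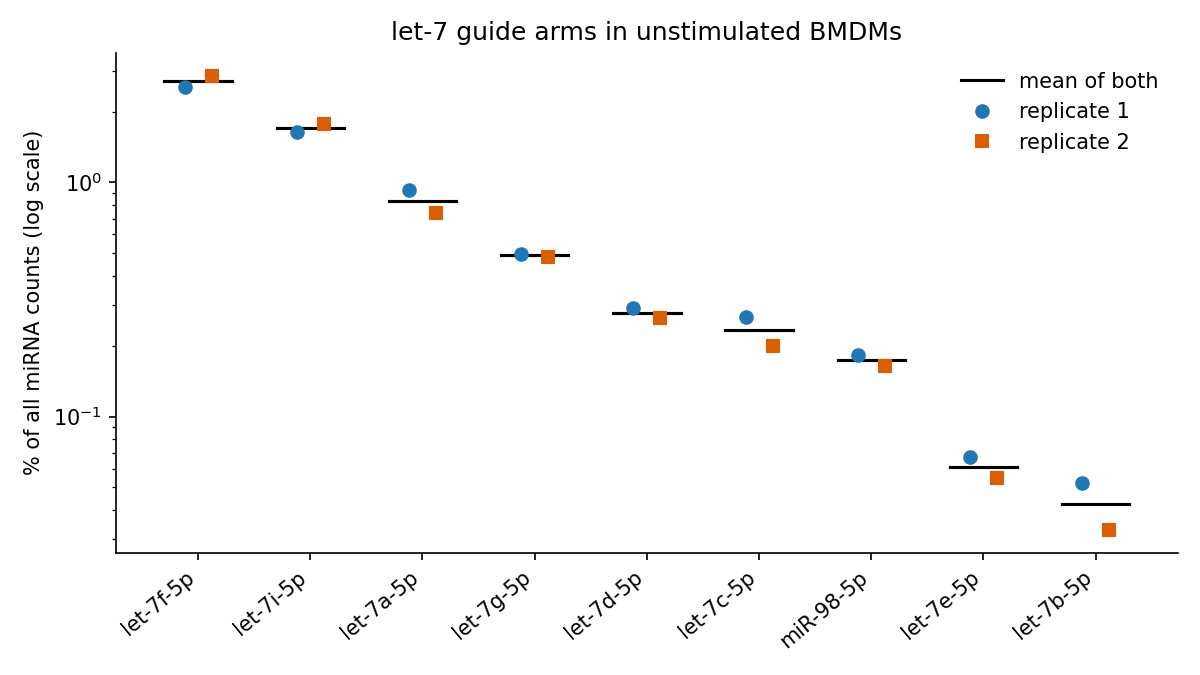
Percent of all miRNA counts (log axis) held by each let-7 guide arm, with a point for each of the 2 libraries and a line for their mean. The members fall in the same order in both libraries, from let-7f-5p at 2.70% to let-7b-5p at 0.0424%.

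Set against the sum of the 9 members, the pool was concentrated in a few RNAs. let-7f-5p made up 39.4% of the pool in replicate 1 (95% interval 39.2 to 39.5) and 43.4% in replicate 2 (43.3 to 43.5), a mean of 41.4% ± 2.87 (SD, n = 2). let-7i-5p made up 25.4% and 27.1%, and let-7a-5p 14.3% and 11.3%. let-7f-5p and let-7i-5p together accounted for 64.7% and 70.5% of the pool, and with let-7a-5p for 79.1% and 81.8%.

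The remaining 6 members divided the rest. let-7g-5p held 7.51% ± 0.241 of the pool (SD, n = 2), let-7d-5p 4.24% ± 0.339, let-7c-5p 3.59% ± 0.745 and miR-98-5p 2.66% ± 0.230. let-7e-5p with 0.933% and let-7b-5p with 0.652% contributed least. The division does not depend on how the libraries are scaled, since each count is divided by other counts of the same library. In these terms replicate 2 had more let-7f-5p and let-7i-5p and less of each of the other 7 members than replicate 1. With let-7a-5p, let-7b-5p, let-7c-5p, let-7e-5p and let-7f-5p summed, because of their single-base distances, the sum made up 59.7% and 59.1% of the pool, which differs less between the libraries than let-7f-5p alone.

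**Figure D3:**
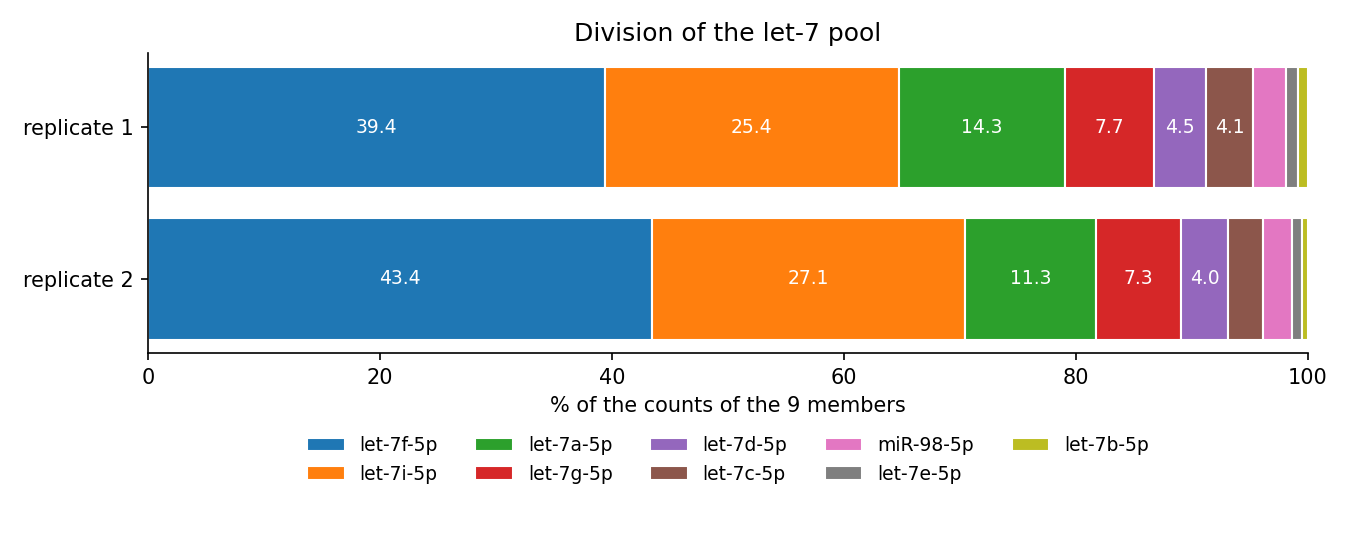
Division of the counts of the 9 let-7 guide arms among the members, in percent of their sum, with a bar for each library. let-7f-5p takes 39.4% in replicate 1 and 43.4% in replicate 2, and let-7f-5p, let-7i-5p and let-7a-5p together take 79.1% and 81.8%.

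Apart from the passenger arms, the table holds 3 further names that carry a let-7 name or the same seed. The most abundant was let-7j, with 17986 and 24279 counts, a mean share of 0.273% ± 0.0384 (SD, n = 2). Its annotated sequence differs from let-7i-5p by G8U, the base of let-7i-5p written first, and by 2 more bases at the 3′ end. The change falls on the last base of the seed, so let-7j was not part of the seed family above. It amounted to 15.0% of the let-7i-5p count in replicate 1 and 16.9% in replicate 2. Placed among the members it would rank 7 and 5, and adding it would raise the pool to 6.71% and 6.87% of the libraries. How many of these reads came from let-7i-5p was not tested. let-7k had 0 and 1 counts, and miR-1961 had 0 counts in both libraries.

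The 9 guides come from 12 hairpins at 8 separate loci on 7 chromosomes, taken from the GENCODE M21 annotation of GRCm38. let-7a-5p, let-7c-5p and let-7f-5p each have 2 hairpins with the same guide sequence, so their counts cannot be divided between the copies. These 3 guides held 57.8% of the pool in each library, and the 6 guides of a single hairpin held 42.2% in each.

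The locus on chromosome 13 can supply let-7f-5p, let-7a-5p and let-7d-5p, which include the leading member of the pool. On the minus strand it holds the hairpins of let-7a-1 (chr13:48538179-48538272), let-7f-1 (chr13:48537829-48537917) and let-7d (chr13:48536012-48536114), with 261 and 1714 bases between neighbours. All 3 lie in exons of the long non-coding RNA gene 6720427I07Rik on the same strand, and a further annotated miRNA gene, Gm24111, overlaps let-7f-1 on the opposite strand. In replicate 1, let-7f-5p exceeded let-7a-5p 2.74-fold and let-7d-5p 8.78-fold. In replicate 2 these ratios were 3.85 and 10.8. Guides with a hairpin at the same locus were thus far from equal in counts. Only let-7d-5p has no other hairpin.

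The other copy of let-7f lies on chromosome X, in an intron of Huwe1, a gene for a ubiquitin ligase. There let-7f-2 (chrX:151912346-151912428) is followed by miR-98 (chrX:151913214-151913321) on the plus strand, with 785 bases between them. The count of let-7f-5p was 13.9 times that of miR-98-5p in replicate 1 and 17.4 times in replicate 2.

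let-7i-5p and let-7g-5p each come from a hairpin that has no other let-7 hairpin within 50 kb. let-7i lies on the minus strand of chromosome 10 (chr10:122985640-122985724), in an exon of the transcribed pseudogene D630033A02Rik. let-7g lies on the plus strand of chromosome 9 (chr9:106178840-106178927), in an intron of Wdr82, which encodes a subunit of a histone methyltransferase complex. The single let-7i hairpin stood behind 25.4% and 27.1% of the pool, and its guide had 3.30 and 3.69 times the count of let-7g-5p. The nearest other miRNA hairpin of let-7g, Mir135a-1, lies 24626 bases away, and miR-135a-5p had 5 and 2 counts.

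let-7c and let-7b share a locus on the plus strand of chromosome 15, where let-7c-2 (chr15:85706603-85706697) and let-7b (chr15:85707319-85707403) lie in exons of the non-coding gene Lncppara with 621 bases between them. let-7c-5p, which has a second hairpin, had 5.12 and 6.11 times the count of let-7b-5p.

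The remaining 3 hairpins lie beside members of the miR-99/100 and miR-125 families, an arrangement found in many animals. let-7e (chr17:17830352-17830444) lies in an intron of Spaca6, a gene needed for sperm-egg fusion, on the plus strand, with Mir99b 94 bases and Mir125a 367 bases away. The annotated miRNA gene Gm25927 overlaps it on the opposite strand. let-7c-1 (chr16:77599657-77599750) lies on the plus strand in an intron of the non-coding gene Mir99ahg and opposite an intron of Gm11146, 656 bases from Mir99a and 46522 from Mir125b-2. let-7a-2 (chr9:41536716-41536811) lies on the plus strand in introns of the non-coding genes 3110039I08Rik and Gm49317, 5211 bases from Mir100 and 45114 from Mir125b-1.

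At the chromosome 17 locus the let-7 guide was the rarest of the 3. miR-99b-5p had 61149 and 115165 counts, 12.5-fold and 26.1-fold the count of let-7e-5p, and miR-125a-5p had 28250 and 35857 counts, 5.76-fold and 8.12-fold. At the other loci the let-7 guide was the more abundant, although let-7c-5p and let-7a-5p also come from elsewhere. let-7c-5p exceeded miR-99a-5p, with 3906 and 5709 counts, 4.99-fold and 2.85-fold, and let-7a-5p exceeded miR-100-5p, with 700 and 1723 counts, 97.0-fold and 34.8-fold. miR-125b-5p, whose hairpins lie at both loci, had 6086 and 9996 counts.

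Unlike the guides, the passenger arms are named by hairpin. For let-7f the passengers of both copies were found, let-7f-1-3p with 351 and 263 counts and let-7f-2-3p with 315 and 344. The order of the 2 passengers was opposite in the 2 libraries. For let-7a, let-7a-2-3p had 0 counts in both libraries, while let-7a-1-3p had 1378 and 1092. Which of the let-7a hairpins gave the guide reads was not tested. The same counts stand under let-7c-2-3p, because let-7a-1-3p and let-7c-2-3p are one sequence, so the source of these reads cannot be told apart. The other let-7c passenger, let-7c-1-3p, had 108 and 95 counts. The shared sequence and the passenger of let-7a-2 are given for comparison, with the passenger of let-7d, which was the most abundant.
mmu-let-7a-1-3p: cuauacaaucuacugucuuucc
mmu-let-7c-2-3p: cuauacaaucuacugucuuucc
mmu-let-7a-2-3p: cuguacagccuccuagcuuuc
mmu-let-7d-3p: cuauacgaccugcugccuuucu

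let-7d stood apart from the other members in the use of its arms. let-7d-3p had 6286 and 7582 counts, and the guide made up 77.2% (95% interval 76.7 to 77.6) of the counts of both arms in replicate 1 and 73.7% (73.2 to 74.2) in replicate 2, a mean of 75.4% ± 2.42 (SD, n = 2). In the other 8 members the guide made up from 91.7% to 99.8%. It made up 92.3% ± 0.825 for miR-98, whose passenger had 1022 and 1197 counts, 93.1% ± 0.202 for let-7c, 95.3% ± 0.332 for let-7b and 97.7% ± 0.0264 for let-7e. For let-7a it was 98.1% ± 0.142, and for let-7f, let-7g and let-7i it was 99.7%, 99.7% and 99.8%. The shared passenger counts enter both let-7a and let-7c. Left out of both, an alternative chosen after seeing the data, they bring the guide share of let-7a to 100% and that of let-7c to 99.4%.

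The 4 other passengers were rare, with 179 and 139 counts for let-7b-3p, 117 and 107 for let-7e-3p, 103 and 121 for let-7g-3p and 262 and 224 for let-7i-3p. For comparison, hairpins were taken whose arms carry the same name. Those with a copy number in the name of an arm, such as let-7a, let-7c and let-7f, are left out. Over all 501 such hairpins with any count, the more abundant arm held a median of 98.4% of the counts. In 105 of the 501 it held a smaller share than in let-7d. Among the 176 hairpins with at least 100 counts over both arms and libraries, the median was 97.2%, and 27 (15.3%) had a dominant arm with a smaller share than that of let-7d. Among the 54 with at least 10000 counts, a minimum that let-7d passes and that was chosen after seeing the data, the median was 98.5% and 3 (5.56%) had a smaller share. The hairpin of let-7d, from the table of RefSeq, is given with the guide and then the passenger in capitals.
Mirlet7d: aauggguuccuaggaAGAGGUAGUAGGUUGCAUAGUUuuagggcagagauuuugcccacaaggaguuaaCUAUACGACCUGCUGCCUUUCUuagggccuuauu

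**Figure D4:**
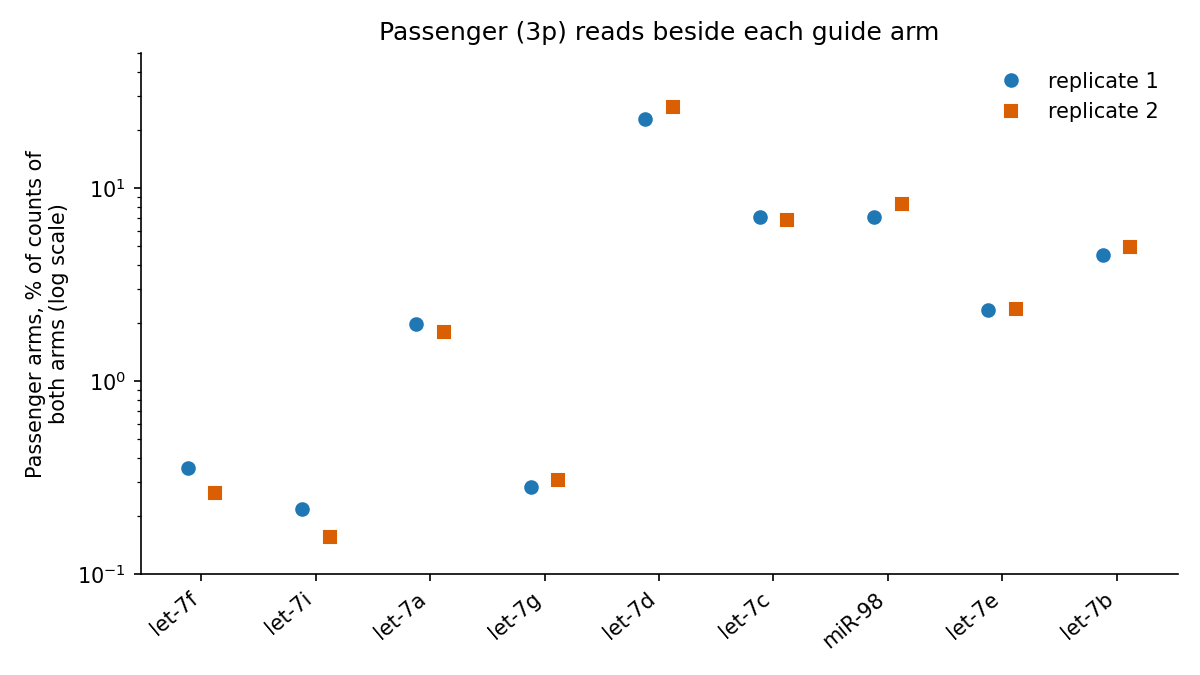
Passenger reads of each let-7 hairpin or pair of hairpins, in percent of the counts of both arms (log axis), with a point for each library. The passenger share of let-7d (22.8% and 26.3%) lies above that of the other 8 members, which reach at most 8.26%.

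The libraries were compared miRNA by miRNA with a two-sided Fisher's exact test of the count against the rest of the library, adjusted by the Benjamini-Hochberg method over the 588 names whose counts in both libraries sum to at least 10. This test compares 2 libraries, not conditions. All 9 members differed at an adjusted p under 0.05, where 44.2% of all tested miRNAs did. At the depth of the members a call is common, since 140 (82.4%) of the 170 names that reach a sum of 1000 were called. let-7f-5p and let-7i-5p were higher in replicate 2 (13.8% of all tested were), and the other 7 members were lower (30.4% of all tested were). Among the 140 calls at the depth of the members, 58 were higher in replicate 2 with library totals. Of all 260 calls, 81 were higher in replicate 2 with library totals, 122 of 259 with TMM scaling and 124 of 251 with DESeq2 size factors.

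The sizes of these differences were modest. let-7f-5p was higher in replicate 2 by a log2 ratio of 0.16 (adjusted p = 4.05e-297, Fisher's exact test) and let-7i-5p by 0.12 (adjusted p = 9.84e-95, Fisher's exact test). let-7b-5p, the rarest member, had the lowest log2 ratio at -0.66 (adjusted p = 3.08e-73, Fisher's exact test), followed by let-7c-5p at -0.40, let-7a-5p at -0.32 and let-7e-5p at -0.30. These 6 directions were the same with TMM scaling and DESeq2 size factors. miR-98-5p at -0.15 and let-7d-5p at -0.14 were no longer called with either, and let-7d-5p changed sign with DESeq2 size factors, to 0.0033. let-7g-5p at -0.043 changed sign with both, to 0.086 and 0.10, and was called higher (adjusted p = 1.55e-15 and 4.48e-21, Fisher's exact test).

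TMM scaling moved all log2 ratios by 0.13 and DESeq2 size factors by 0.14, so the members were also set against the median of the 448 miRNAs with at least 10 counts in each library, which was -0.17. Relative to this median, let-7f-5p lay at 0.34, let-7i-5p at 0.29 and let-7g-5p at 0.13. let-7d-5p and miR-98-5p lay at 0.032 and 0.019. let-7e-5p, let-7a-5p, let-7c-5p and let-7b-5p lay at -0.12, -0.15, -0.23 and -0.49. The median of the 170 abundant miRNAs, the class of depth that holds all 9 members, was closer to 0, at -0.045. Relative to it, let-7f-5p and let-7i-5p lay at 0.21 and 0.16, let-7g-5p at 0.0014, let-7d-5p at -0.096 and miR-98-5p at -0.11. The 4 members below both medians, let-7e-5p, let-7a-5p, let-7c-5p and let-7b-5p, lay at -0.25, -0.28, -0.36 and -0.61. The place of let-7d-5p and miR-98-5p above or below the median thus depended on which miRNAs were taken. With library totals a single member, let-7b-5p, passed a 1.5-fold difference of its share between the libraries, where 25.0% of the 448 miRNAs and 22 (12.9%) of the 170 abundant miRNAs did. The count of 1 in 9 is thus near that of miRNAs of similar depth. With TMM scaling, at a log2 ratio of -0.53, and with DESeq2 size factors, at -0.52, let-7b-5p did not pass and 0 of the 9 members did, where 22.1% and 21.2% of the 448 miRNAs passed. The median absolute log2 ratio was 0.16 over the members, 0.24 over the 170 abundant miRNAs and 0.33 over all 448.

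**Figure D5:**
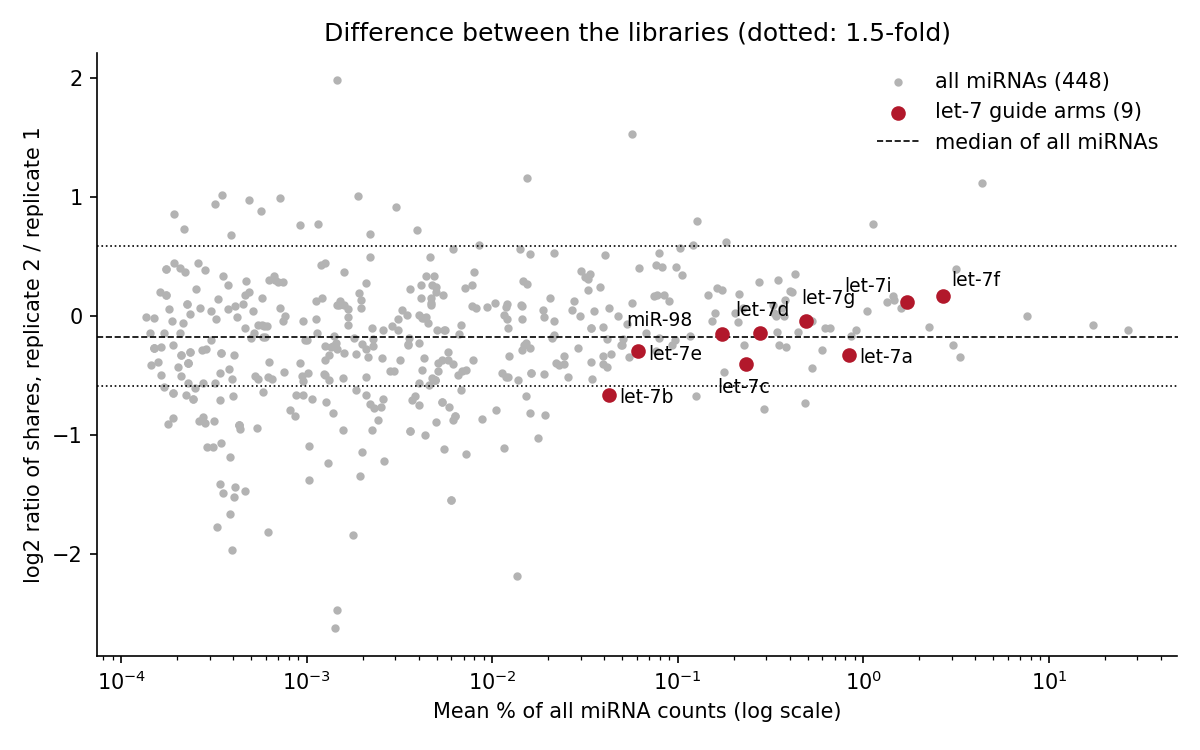
log2 ratio of shares between the libraries, replicate 2 over replicate 1, against the mean percent of all miRNA counts (log axis), for the 448 miRNAs with at least 10 counts in each library (grey) and the let-7 guide arms (red), with dotted lines at 1.5-fold and a dashed line at the median (-0.17). let-7b-5p at -0.66 is the only member beyond a dotted line with library totals but lies inside it with TMM (-0.53) and DESeq2 (-0.52) scaling. The sign of let-7g-5p changes with both of these scalings, and that of let-7d-5p with DESeq2 alone.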

How the data were processed

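Small RNA libraries were made from total RNA of BMDMs after rRNA depletion. Per the study's methods, reads were trimmed and mapped to mouse stem-loops of miRBase with Bowtie 0.12.7. DESeq2 is named among the submitters' processing tools. The miRBase release, the mismatches allowed, the rule for multiple matches and the step to mature names are not given in the sources used here. The authors deposited unnormalized read counts for each mature name, with a column per replicate. Related miRNAs can exchange reads at these steps.

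From these counts, shares, pool divisions, arm shares and seed families were computed in Python 3.11.15 with pandas 2.3.3, and Fisher's exact test with scipy 1.17.1 and statsmodels 0.14.6, tested on simulated data. Apart from planted changes, the simulated libraries differed by counting error alone, without further variation between replicates. edgeR 4.0.16 (TMM) and DESeq2 1.42.0 in R 4.3.3 served for alternative scalings only. DESeq2 gave both libraries a size factor of 1. With a single group, no quasi-likelihood test was made. Named besides the 9 members were all other names with a let-7 name or seed, the passenger arms, miRNAs with a hairpin within 50 kb, the 3 seed families on either side, the neighbours by share of the 3 leading members and the cell type markers. The miR-30 guide arms were named after their values were seen. Members and lists were chosen with earlier results of these data known.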

Additional observations from a re-analysis of the deposited data

How the results depend on the processing

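Leaving aside the values of a single library, 27 of 36 recomputed main values moved by less than the spread between the libraries or kept their count within 1.5 times. For the log2 ratio of the family, the move was set against the 95% interval of its counting error instead. Of 117 further values, 93 moved by less than the spread or kept their direction and call, while 18 moved further, 3 changed sign and 3 lost their call. In both tallies some outcomes were fixed in advance. A share of pooled reads always lies between the values of both libraries, so it cannot move past their spread. DESeq2 size factors were equal for both libraries, so the shares of all miRNA counts with them repeat those of pooled reads. These settings thus do not test the shares. With miR-21a-5p left out of the total, the family share was 8.91% and that of let-7f-5p 3.69%, because the total is smaller. With both arms summed, the family share was 6.67%. Leaving out a replicate gave 6.47% to 6.57% for the family, 2.55% to 2.85% for let-7f-5p, 39.4% to 43.4% for its part of the pool and 73.7% to 77.2% for the guide share of let-7d, with the family at rank 4 each time. Such a value is that of the remaining library alone, as given above, and is no separate check. The 5 members connected by single-base steps, summed, made up 59.4% of the pool, against 41.4% for let-7f-5p alone. With the other let-7 names in the pool, 5 of the 9 members kept their place. The others moved down because let-7j ranked between let-7d-5p and let-7c-5p by mean share. The order of the 9 members among themselves did not change. The median of the dominant arm was 97.2% for hairpins with at least 100 counts and 98.5% for those with at least 10000, chosen after seeing the data. Of the 170 miRNAs with at least 1000 counts, 22 passed 1.5-fold, against 112 of the 448 with at least 10 in each library. The log2 ratio of the family was 0.15 with TMM and 0.17 with DESeq2 size factors. Those of let-7g-5p turned to 0.086 and 0.10, and that of let-7d-5p to 0.0033 with DESeq2 size factors. Fisher's exact test called 260 of 588 miRNAs in the main setting. It called 259 of 588 with TMM scaling and 251 of 588 with DESeq2 size factors. With at least 1 count summed it called 247 of 1013, and with at least 10 counts in each library 243 of 448. No paired analysis was possible because both libraries belong to the same group. Low counts limit the shares of the rare passengers: that of let-7f-2-3p has a 95% interval of 0.00385% to 0.00480% in replicate 1, wider than its SD of 3.65e-05%.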

Other observations

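The 5p arms of the miR-99/100 and miR-125 hairpins beside let-7 differed between the libraries in the opposite direction to the let-7 guides of the same loci. Those of miR-99a, miR-99b, miR-100, miR-125a and miR-125b, 5 of 5, were higher in replicate 2 (Fisher's exact test, adjusted p under 0.05) with library totals, TMM scaling and DESeq2 size factors. Of all tested miRNAs 13.8%, 20.7% and 21.1% were higher, and of the 170 abundant ones, which include these 5, 34.1%, 51.8% and 52.9%. Their summed share was 1.37% in replicate 1 and 2.08% in replicate 2. The log2 ratio was 1.16 for miR-100-5p, 0.77 for miR-99b-5p, 0.57 for miR-125b-5p, 0.40 for miR-99a-5p and 0.20 for miR-125a-5p. The calls of some of their 3p arms depended on the scaling. miR-99b-3p was higher with library totals, at 0.26 (adjusted p = 0.0376, Fisher's exact test), and with both other scalings. miR-99a-3p at 0.22 and miR-125b-2-3p at 0.051 did not pass the test with library totals but did with TMM scaling, at 0.35 and 0.18, and with DESeq2 size factors, at 0.37 and 0.20. miR-125a-3p at -0.20 and miR-125b-1-3p at -0.44 did not pass with any of the 3, and miR-100-3p had 1 and 0 counts. The guides let-7a-5p, let-7c-5p and let-7e-5p, which have hairpins beside them, were lower. Scaling raised the ratios of their neighbours, and these guides remained lower with TMM scaling (-0.19, -0.28 and -0.17) and with DESeq2 size factors (-0.18, -0.26 and -0.15). let-7e-5p has no other hairpin, while let-7a-5p and let-7c-5p also come from other loci. The cause was not tested.

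A further split of the members was noticed after their values were seen. The 5 members with G at both positions 11 and 12 (let-7a-5p, let-7b-5p, let-7c-5p, let-7d-5p and let-7e-5p) together made up 24.8% of the pool in replicate 1 and 19.7% in replicate 2. Their log2 ratios of shares ran from -0.66 to -0.14 with library totals, and those of the other 4 members from -0.15 to 0.16. With DESeq2 size factors let-7d-5p lay at 0.0033. This grouping has no test, because it was drawn from the same values.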
